A study of Mus musculus with 12 samples.

Results

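The small leucine-rich proteoglycans are secreted proteins of the extracellular matrix whose core is a curved stack of leucine-rich repeats. Genes of 8 of them were followed through the lumbar spinal cord of healthy mice and of mice with a model of amyotrophic lateral sclerosis (ALS), a disease in which motor neurons degenerate. The 8 genes were Dcn, Bgn and Aspn (class I of the family), Fmod, Lum, Prelp and Omd (class II) and Ogn (class III). They were taken by name, as the rows of 33906 gene identifiers that GENCODE M21 gives these symbols, and each symbol matched 1 identifier.

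Poly(A) RNA of 12 mice was sequenced, 3 in each of 4 groups. Group H held healthy wild-type animals (H1, H2 and H4), and the letter-number names are those of the labels. The other groups were all ALS model mice, so that P, C and E share the disease model. P mice received PBS (P66, P67 and P74), C mice received Mn@CDs, carbon dots that contain manganese (C79, C84 and C85), and E (mice E75, E77, E90) is read here as the group given Edaravone. That reading is by elimination, because the series text lists a group E but describes Edaravone, a radical scavenger used against ALS, under the letter D. Strain, model allele, promoter, age, sex, dose and duration are given by no source used here, nor is what limits the animals as a model.

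Decorin, biglycan and their relatives coat collagen fibrils and set their spacing and thickness, and several of them bind growth factors of the TGF-beta family. Class I proteins typically carry chains of chondroitin or dermatan sulfate, and several class II proteins carry keratan sulfate. In the nervous system, genes of this family are known mainly from fibroblasts of the meninges, of vessel walls and of nerve sheaths, and decorin has been studied in scars of the injured cord. Whole lumbar cord was homogenised, so in these values fewer cells of a type and less RNA per cell cannot be told apart.

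Values are FPKM, that is, reads divided by exon length and by the library's total, and can be compared between genes because they are per length. Differences between groups are on the log2(FPKM + 1) scale, given with their standard error (n = 3 mice per group), and understate the change of genes at low FPKM. A gene passed at a Benjamini-Hochberg adjusted p of 0.05 over 18119 tested genes in limma's moderated test, and all 8 members were tested. Reads recovered from the FPKM summed to 16.8 to 19.8 M per library. In every library this sum was above the total that the FPKM scaling implies, 15.55 to 18.44 M. Some recovered reads are therefore not exact, and why the totals differ was not tested. The labelled tissue held its defining transcripts, with Mbp of myelin at 1200 to 2539 FPKM and Snap25 of neurons at 242 to 427 FPKM over the 12 libraries. H1 stood apart in skeletal muscle RNA, with Acta1 of muscle at 796 FPKM against 0.218 to 46.9 FPKM in the other libraries. E libraries stood apart in Schwann cell and nerve root RNA. Their 12 markers summed to 394 to 903 FPKM, against 46.9 to 251 FPKM in the other 9 libraries.

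Of the members, 7 lie beside other genes of the family, on 3 chromosomes of GRCm38. On chromosome 1, Prelp (133910304 to 133921414, minus strand) and Fmod (134037254 to 134048277, plus strand) are 116 kb apart, and the family gene Optc lies next to Prelp. On chromosome 10, Dcn (97479609 to 97518143) is followed on the plus strand by Lum (97565128 to 97572703) after a gap of 47.0 kb, and then by Kera and Epyc. On chromosome 13, Ecm2 is followed on the plus strand by Aspn (49544443 to 49567565), Omd (49582462 to 49592822) and Ogn (49608046 to 49624501). Bgn lies alone on chromosome X (73483602 to 73495933, plus strand). The gene Cenpp spans Aspn, Omd and Ogn on the other strand, shares 7 exon bases with Aspn and none with Omd or Ogn, and had 0.158 to 0.401 FPKM. The antisense gene Gm15851 shares 350 exon bases with Prelp and had at most 0.178 FPKM, and reads of the shared bases cannot be divided by strand here.

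**Figure D1:**
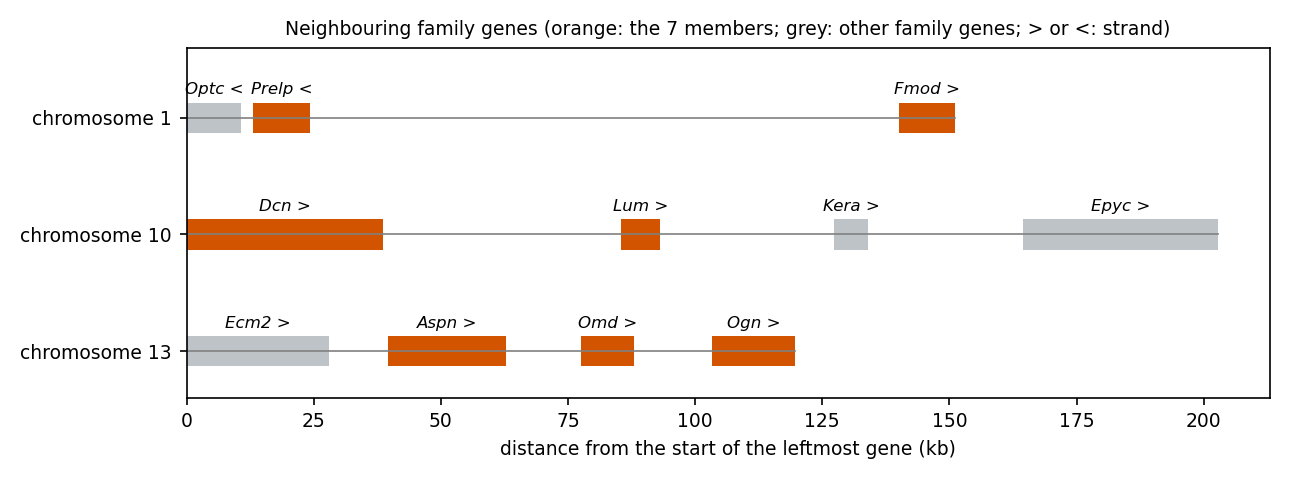
Position of the members (orange) and of other family genes (grey) on 3 chromosomes, as distance in kb from the start of the leftmost gene drawn, with the strand after each name. Genes outside the family are not drawn. On chromosome 13, Omd starts 14.9 kb after Aspn and Ogn 15.2 kb after Omd, while Prelp and Fmod on chromosome 1 are 116 kb apart.

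Promoters of 6 of the 8 members were found in RefSeq (GRCm38.p6). The 250 bases before the annotated start are shown for Fmod and Prelp, neighbours that were both higher in every group of the ALS model, and for Ogn and Aspn, which lie on either side of Omd and of which Ogn was higher and Aspn was not. Fmod is at chr1:134037004-134037253 (plus strand), Prelp at chr1:133921402-133921651 (minus strand), Ogn at chr13:49607765-49608014 and Aspn at chr13:49544193-49544442 (both plus strand). The starts are those of RefSeq. Against the GENCODE M21 positions given above, the Prelp window reaches into the gene and the Ogn window stops short of it. Capitals mark matches, on either strand, to any of the 4 motifs searched.
Fmod: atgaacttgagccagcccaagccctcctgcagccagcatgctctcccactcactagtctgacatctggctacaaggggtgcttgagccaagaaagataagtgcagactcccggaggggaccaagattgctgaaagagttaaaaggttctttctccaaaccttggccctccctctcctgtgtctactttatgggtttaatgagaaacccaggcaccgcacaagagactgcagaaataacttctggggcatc
Prelp: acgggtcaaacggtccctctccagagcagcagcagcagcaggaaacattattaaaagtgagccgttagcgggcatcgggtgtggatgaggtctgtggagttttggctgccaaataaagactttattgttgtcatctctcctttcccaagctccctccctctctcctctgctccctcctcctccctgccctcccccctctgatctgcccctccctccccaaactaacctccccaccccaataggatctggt
Ogn: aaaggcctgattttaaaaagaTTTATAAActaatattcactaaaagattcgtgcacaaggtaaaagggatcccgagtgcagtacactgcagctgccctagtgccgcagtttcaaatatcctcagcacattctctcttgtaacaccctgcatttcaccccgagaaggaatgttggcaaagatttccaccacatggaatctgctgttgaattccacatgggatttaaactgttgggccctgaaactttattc
Aspn: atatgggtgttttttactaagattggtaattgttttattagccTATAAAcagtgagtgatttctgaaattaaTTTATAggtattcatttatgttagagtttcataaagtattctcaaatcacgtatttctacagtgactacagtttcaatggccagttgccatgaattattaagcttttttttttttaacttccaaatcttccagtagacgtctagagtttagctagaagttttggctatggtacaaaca
The motif TATAAA of TATA boxes is found in 12.4% of 32851 promoter windows of this length. TGANTCA, bound by AP-1, is found in 6.75% of them. CAGACA, bound by SMAD proteins, is found in 17.1%, and the GC box GGGCGG in 32.7%. Both Ogn matches are to TATAAA, 1 on each strand, and overlap each other at -229 to -222 from the start. Aspn also had 2 matches to TATAAA, at -207 to -202 (plus strand) and at -178 to -173 (minus strand). Whether any of these matches acts as a TATA box was not tested. Fmod and Prelp held none of the 4 motifs. Of the other members with a promoter, Bgn had 3 matches to GGGCGG, the last 2 overlapping, and Omd had none.

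Decorin, the product of Dcn, binds collagen fibrils and sequesters TGF-beta. Dcn had 7.78, 2.86 and 1.93 FPKM in H1, H2 and H4, 17.7, 17.3 and 6.33 in P66, P67 and P74, 5.78, 12.8 and 15.1 in C79, C84 and C85, and 39.1, 37.1 and 74.9 in E75, E77 and E90. All 3 E libraries lay above the other 9, and H1 lay above P74 and C79. Recovered reads of Dcn ran from 195 in H4 to 7339 in E90. Biglycan (Bgn), whose soluble form is a ligand of the innate receptors TLR2 and TLR4, had 3.57, 1.96 and 2.25 FPKM in H and, with the mice in the same order, 8.2, 5.82 and 3.57 in P. Bgn was at 5.21, 9.86 and 5.37 FPKM in C79, C84 and C85 and at 6.56, 5.64 and 10.3 in E75, E77 and E90. The 9 ALS model libraries lay above the healthy ones for Bgn, P74 only just above H1. Asporin (Aspn), which has a run of aspartate residues near its start and inhibits TGF-beta, had 3.06, 1.07 and 0.491 FPKM in H1, H2 and H4. It had 1.63, 1.44 and 0.75 FPKM in P66, P67 and P74, 1.28, 1.24 and 1.17 in C79, C84 and C85, and 0.677, 1.11 and 0.785 in E75, E77 and E90. The healthy libraries of Aspn held both the highest value and the lowest, so every group lay within their span. The highest was H1, the library with most muscle RNA, and 10 skeletal muscle markers summed there to 2370 FPKM, against 2.49 to 210 FPKM elsewhere. Within H the order of Aspn followed that of the muscle sum. Within P it ran the other way, with P74 highest in muscle (168 FPKM) and lowest in Aspn. In C and E the 2 orders neither matched nor mirrored each other. Of these 10, 9 were tested, and the part of muscle in the Aspn value of H1 was not tested.

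Fibromodulin (Fmod) is a keratan sulfate proteoglycan that guides collagen fibril assembly and cross-linking. It had 3.79, 2.1 and 1.59 FPKM in H1, H2 and H4, 58.2, 26.8 and 12.6 in P66, P67 and P74, 21.9, 54.8 and 31.4 in C79, C84 and C85, and 25.2, 12.7 and 20.96 in E75, E77 and E90. Every ALS model library exceeded every healthy one, and the 3 ALS model groups overlapped. Lumican (Lum), needed for the ordered fibrils of the cornea, had 1.51, 0.401 and 0.543 FPKM in the healthy libraries in the same order, 8.12, 4.94 and 1.2 in P, 1.3, 5.03 and 4.7 in C, and 13.7, 12.7 and 27.7 in E. As for Dcn, the 3 E libraries of Lum lay above all others and H1 lay above P74 and C79. Prelp, which encodes a protein that links basement membranes to collagen, had 6.31, 6.2 and 6.08 FPKM in H1, H2 and H4, the narrowest spread of any member in H. It had 24.5, 18.7 and 12.9 FPKM in P, 19.2, 24.9 and 17.4 in C and 13.5, 16.0 and 23.2 in E. All 9 ALS model libraries of Prelp were above the healthy ones. Osteomodulin (Omd), a bone matrix protein, was the member with fewest reads, from 1 in H4 to 71 in C84. Omd was at 0.477, 0.17 and 0.0257 FPKM in H, 1.11, 0.436 and 0.392 in P, 0.545, 1.71 and 0.944 in C and 1.63, 0.619 and 1.03 in E. H1 overlapped the P libraries of Omd and lay below all C and E libraries.

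Osteoglycin (Ogn), a class III member also called mimecan, had 6.2, 2.93 and 0.496 FPKM in H, highest in H1, and 25.6, 22.3 and 17.4 in P. It had 9.14, 18.6 and 19.9 FPKM in C79, C84 and C85 and 56.6, 57.6 and 113 in E75, E77 and E90. The E libraries lay above all 9 others and the healthy libraries below all 9 ALS model libraries, the latter beside 14.1% of all tested genes. Dcn, Lum and Ogn thus all had their E libraries above the other 9. Over all tested genes, 4.81% had E above P without overlap, and how many had E above all 9 others was not counted.

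**Figure D2:**
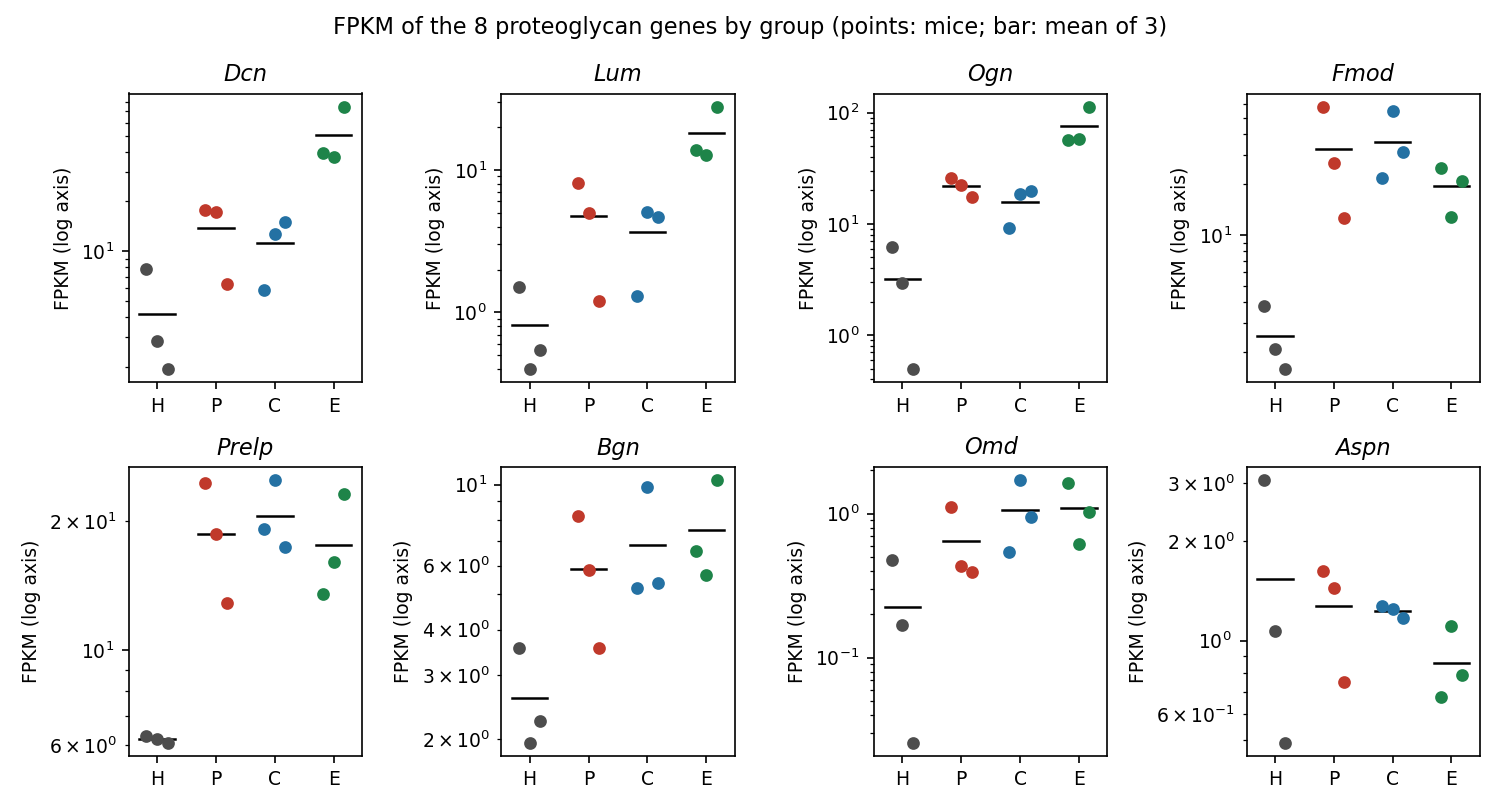
FPKM (log axis) of the 8 genes in each mouse, by group, with a bar at the mean of 3. Dcn, Lum and Ogn have their 3 highest points in E, Fmod and Prelp are above H in every library of P, C and E, and Aspn of H spans from 0.491 to 3.06 FPKM.

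The 8 members together summed to 13.4 to 32.7 FPKM in H, 55.1 to 145 in P, 64.3 to 129 in C and 144 to 272 in E. Which member led differed between groups. In H the order of mean level was Prelp (6.2 ± 0.117 FPKM, SD, n = 3), Dcn (4.19 ± 3.14), Ogn (3.21 ± 2.86), Bgn (2.59 ± 0.857), Fmod (2.49 ± 1.15), Aspn (1.54 ± 1.35), Lum (0.818 ± 0.603) and Omd (0.224 ± 0.23). All neighbours in that order overlapped in their libraries. In P it was Fmod (32.5 ± 23.3 FPKM, SD, n = 3), Ogn (21.8 ± 4.13), Prelp (18.7 ± 5.82), Dcn (13.8 ± 6.45), Bgn (5.86 ± 2.32), Lum (4.76 ± 3.46), Aspn (1.27 ± 0.462) and Omd (0.645 ± 0.401), again with overlap between all neighbours. In C, Fmod led (36.03 ± 17.0 FPKM, SD, n = 3), then Prelp (20.5 ± 3.92), Ogn (15.8 ± 5.85), Dcn (11.2 ± 4.85), Bgn (6.81 ± 2.64), Lum (3.68 ± 2.07), Aspn (1.23 ± 0.0524) and Omd (1.07 ± 0.593). Lum of C did not overlap with Bgn above it or Aspn below it. In E the order began with Ogn (75.8 ± 32.3 FPKM, SD, n = 3) and Dcn (50.4 ± 21.2), which overlapped. Fmod (19.6 ± 6.35), Lum (18.1 ± 8.41) and Prelp (17.6 ± 5.01) followed below the lowest Dcn library and overlapped one another, and then came Bgn (7.5 ± 2.47), Omd (1.09 ± 0.507) and Aspn (0.858 ± 0.226). By mean level Fmod thus had rank 5 among the members in H, rank 1 in P and C, and rank 3 in E.

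P against H sets the disease model with PBS against healthy cord. Fmod, Ogn and Prelp rose, and the other 5 members did not pass. Fmod differed by 3.06 ± 0.51 (adjusted p = 0.00439), Ogn by 2.69 ± 0.51 (adjusted p = 0.00859) and Prelp by 1.41 ± 0.22 (adjusted p = 0.00269). Fmod, Ogn, Prelp and Bgn were higher in P without overlap, beside 26.4% of all tested genes. For Bgn, P74 (3.568 FPKM) lay only just above H1 (3.566 FPKM). The 3 of 8 members called stood beside 12.2% of all tested genes called higher in this comparison. The median over the members was 1.45, against 0.07 over all tested genes. Dcn (1.55 ± 0.51, adjusted p = 0.0637), Lum (1.49 ± 0.54, adjusted p = 0.0869) and Bgn (0.90 ± 0.30, adjusted p = 0.0589) had higher means in P without passing. Omd was at 0.42 ± 0.24 (adjusted p = 0.251) and Aspn at -0.05 ± 0.29 (adjusted p = 0.922). A pseudocount of 0.1 FPKM or leaving out P74, the lowest P library for all 8 members, gave 6 members called, with Dcn, Lum and Bgn added. Without P74 these differed by 2.00 (adjusted p = 0.0253), 2.07 (adjusted p = 0.0146) and 1.17 (adjusted p = 0.0212), and without H1 Dcn differed by 2.01 (adjusted p = 0.0232).

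C was compared with H to ask what the disease model shows after carbon dots. Fmod, Prelp, Ogn and Bgn rose, 4 of 8 members beside 7.25% of all tested genes called higher. Fmod differed by 3.36 ± 0.51 (adjusted p = 0.00395) and Prelp by 1.56 ± 0.22 (adjusted p = 0.00217). Ogn differed by 2.20 ± 0.51 (adjusted p = 0.0266) and Bgn by 1.10 ± 0.30 (adjusted p = 0.0419). The members that did not pass were Dcn at 1.31 ± 0.51, Lum at 1.29 ± 0.54, Omd at 0.73 ± 0.24 and Aspn at -0.06 ± 0.29. Their adjusted p-values were 0.140, 0.166, 0.0838 and 0.924. The calls of Ogn and Bgn depend on the libraries and the settings. Ogn was lost without C84 (adjusted p = 0.0916), C85 (adjusted p = 0.104) or H2 (adjusted p = 0.0741), with only the 2 groups fitted (adjusted p = 0.0923) and with no filter (adjusted p = 0.0569). Bgn was lost without C79 (adjusted p = 0.0564), C84 (adjusted p = 0.132), C85 (adjusted p = 0.0783), H2 (adjusted p = 0.156) or H4 (adjusted p = 0.076), and also under median-ratio scaling (adjusted p = 0.0571), with the FPKM filter (adjusted p = 0.0669) and with no filter (adjusted p = 0.109).

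In E against H, 6 of 8 members rose, beside 11.0% of all tested genes called higher. Ogn had the largest difference of the members, at 4.38 ± 0.51 (adjusted p = 0.000941), followed by Dcn at 3.40 ± 0.51 (adjusted p = 0.00266) and Lum at 3.35 ± 0.54 (adjusted p = 0.00369). Fmod differed by 2.56 ± 0.51 (adjusted p = 0.00927), Prelp by 1.33 ± 0.22 (adjusted p = 0.00336) and Bgn by 1.23 ± 0.30 (adjusted p = 0.0194). Bgn was lost without E90 (adjusted p = 0.0812) or H2 (adjusted p = 0.0802), and with no filter (adjusted p = 0.0536). Omd at 0.76 ± 0.24 (adjusted p = 0.0568) and Aspn at -0.33 ± 0.29 (adjusted p = 0.478) did not pass. Omd passed without E77 (0.93, adjusted p = 0.0401), without H1 (0.91, adjusted p = 0.05) and with the pseudocount of 0.1 FPKM (2.06, adjusted p = 0.0329). The median over the members was 1.297 in C and 1.95 in E, against 0.07 and 0.08 over all tested genes. The comparisons of P, C and E with H share the same 3 healthy libraries, so their calls are not independent of one another.

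With the 9 ALS model libraries as the mean of their 3 groups, 7 of 8 members rose against H, beside 16.4% of all tested genes. Their differences ran from 0.64 ± 0.20 for Omd (adjusted p = 0.0398) to 3.09 ± 0.42 for Ogn (adjusted p = 0.00094). Aspn did not pass, at -0.15 ± 0.23 (adjusted p = 0.691). For Fmod, Ogn, Bgn and Prelp no ALS model library overlapped a healthy one, beside 14.1% of all tested genes that lay higher without overlap. For Bgn this rests on P74 at 3.568 FPKM against H1 at 3.566 FPKM. Median-ratio scaling, which divides H1 by 0.928 and P74 by 1.01, puts H1 above P74. Leaving out H2 left 4 of the 7 calls, with Lum at 1.88 (adjusted p = 0.0582), Bgn at 0.95 (adjusted p = 0.0681) and Omd also lost. The call of Omd was lost without any 1 of C85, E75, E90, H2, H4, P66 or P67, with adjusted p from 0.0508 to 0.140, and also with the FPKM filter (adjusted p = 0.0617) and with no filter (adjusted p = 0.0980).

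**Figure D3:**
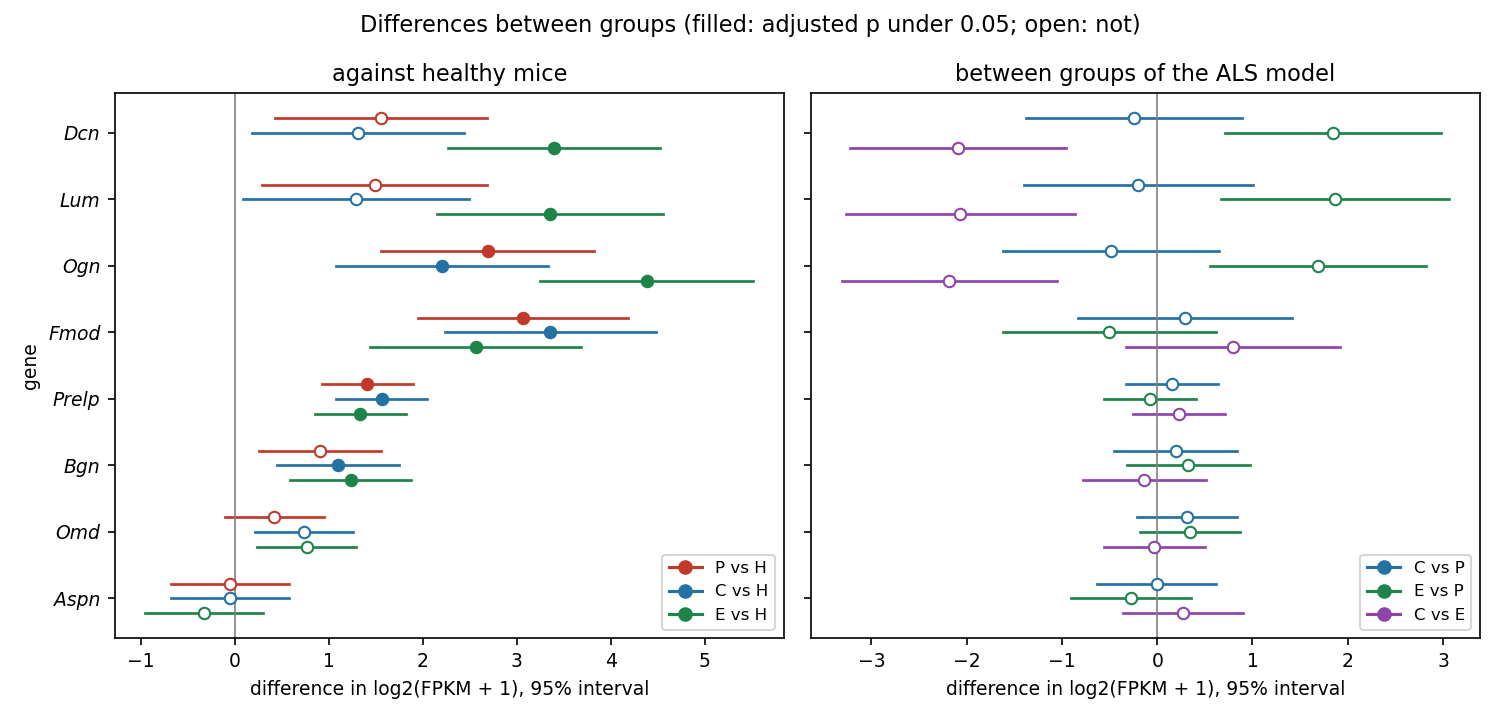
Difference of each member on the log2(FPKM + 1) scale with its 95% interval, by comparison, filled where the gene passed and open where it did not. Fmod and Prelp are filled in each comparison with H, Aspn in none, and no member is filled between the ALS model groups.

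Between the ALS model groups no member passed. C against P, the carbon dots against PBS, gave 0 of 8 members in limma on log2 values and 0 in limma-voom on recovered reads. Of all tested genes, 0.00552% were called. At an unadjusted p under 0.05 there were 0 members, beside 1802 of all 18119 tested genes. The difference was -0.25 for Dcn (95% interval -1.38 to 0.88), 0.29 for Fmod (-0.83 to 1.42) and -0.49 for Ogn (-1.62 to 0.65). Intervals this wide do not show that the groups were alike. Prelp had the narrowest interval of the members, at 0.15 (-0.33 to 0.64). Lum was at -0.20, Bgn at 0.19, Omd at 0.32 and Aspn at 0.00.

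E against P gave 0 of 8 members by limma and 0 by limma-voom, beside 0% of all tested genes. At an unadjusted p under 0.05 there were 3 members, beside 889 of all 18119 tested genes. Those 3 were Dcn, Lum and Ogn, whose E libraries all lay above the P libraries, beside 4.81% of all tested genes that lay higher without overlap. Dcn differed by 1.84 (95% interval 0.71 to 2.98, adjusted p = 0.446), Lum by 1.87 (0.67 to 3.07, adjusted p = 0.508) and Ogn by 1.69 (0.56 to 2.83, adjusted p = 0.567). Fmod was at -0.50, Prelp at -0.07, Bgn at 0.33, Aspn at -0.28 and Omd at 0.35. C against E, the difference between the treatments itself, likewise gave 0 members by limma and 0 by limma-voom, beside 0.171% of all tested genes. The same 3 genes had an unadjusted p under 0.05, beside 1991 of all 18119 tested genes. Dcn differed by -2.09 (95% interval -3.22 to -0.96, adjusted p = 0.184), Lum by -2.07 (-3.27 to -0.87, adjusted p = 0.214) and Ogn by -2.18 (-3.31 to -1.05, adjusted p = 0.159). In these 3 genes every C library lay below every E library, beside 10.3% of all tested genes, and in Aspn every C library lay above, beside 6.61%. Fmod was at 0.80, Prelp at 0.23 and Bgn at -0.13. E against P and C against E share the E libraries.

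Ratios of 2 members within a library do not depend on how that library was scaled. Of the 28 pairs, the log2 ratio of Bgn to Prelp varied least over the 12 libraries, with an SD of 0.33, and that of Dcn to its neighbour Lum came next, with an SD of 0.51. The widest was Ogn to Aspn, at 2.15, although they lie on the same strand of chromosome 13. For Dcn to Fmod the libraries H1, H2 and H4 had log2 ratios of 1.04, 0.45 and 0.28. The ratio was -1.72, -0.63 and -0.997 in P66, P67 and P74, -1.92, -2.10 and -1.06 in C79, C84 and C85, and 0.63, 1.55 and 1.84 in E75, E77 and E90. Dcn exceeded Fmod in all 6 libraries of H and E and was below it in all 6 of P and C. The means were 0.59 ± 0.40 in H, -1.12 ± 0.56 in P, -1.69 ± 0.56 in C and 1.34 ± 0.63 in E (SD, n = 3 each). Between P and E the exact two-sided permutation p was 0.1, the smallest that 3 against 3 can give, and 0.15 adjusted over 6 group pairs. H against P, H against C and C against E gave the same p, and H against E and P against C gave an exact permutation p of 0.2. This pair was chosen from the 28 after its values were seen, a choice that the adjustment does not cover.

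**Figure D4:**
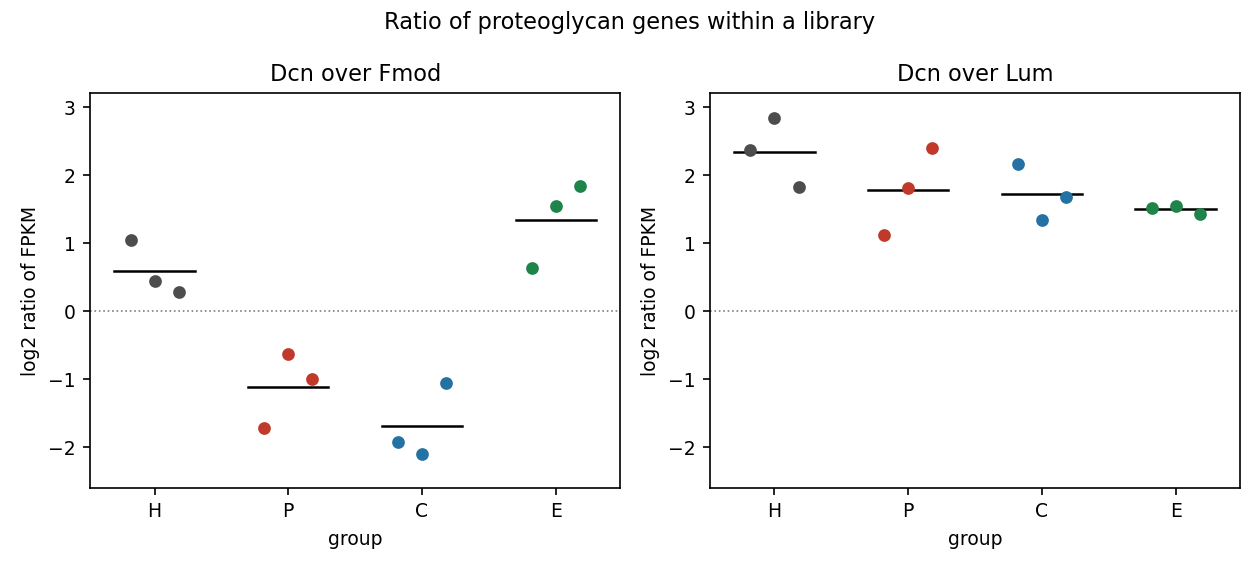
Log2 ratio of FPKM in each library (points), by group with the mean of 3 (bar), for Dcn over Fmod and Dcn over Lum. The ratio of Dcn to Fmod is above 0 in the 6 libraries of H and E and below 0 in the 6 of P and C, while that of Dcn to Lum stays between 1.12 and 2.83 in all 12.

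As a description over the 12 libraries, which share their 4 groups, the members were compared with one another on the log2(FPKM + 1) scale. Pairs without Aspn had r from 0.61 (Dcn and Fmod) to 0.98 (Dcn and Lum). Dcn and Lum were most alike (r = 0.98, and 0.91 for deviations from the group means), and Dcn and Ogn had r = 0.96 (0.86 for deviations). Lum and Ogn had r = 0.92 (0.66 for deviations). Bgn had r = 0.91 with Prelp and 0.88 with Fmod (0.86 for deviations with each). Fmod was most like Prelp (r = 0.94, 0.67 for deviations), and Fmod and Omd had the highest r of any member with Omd among deviations (0.90). Aspn had r between -0.11 and 0.08 with the other 7 members, but between 0.30 (Prelp) and 0.72 (Ogn) for deviations from the group means. Among 12635 genes, Anxa1 of the annexins was the gene most like Dcn (r = 0.98), and Postn, the matrix protein periostin, came next (r = 0.97). Lum had Atp6v0d2 (r = 0.98) and Anxa1 (r = 0.97), and Ogn had Ahnak (r = 0.98) and Stk17b (r = 0.96). Fmod had Itgb5, an integrin subunit (r = 0.99), and Arhgap45 (r = 0.98), while Prelp had Lpin3 and Adap2 (both r = 0.98). Bgn had Sh3d19 (r = 0.98) and Wwc2 (r = 0.97), and Aspn had Tcea3 (r = 0.92). Omd was most like Crabp2 and Slc13a4, both on the list of meningeal fibroblast markers (r = 0.94 each).

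Several marker lists moved with the members, and their part in the results was not tested. The 18 meningeal fibroblast markers summed to 29.9, 26.8 and 21.5 FPKM in H1, H2 and H4, 98.3, 53.9 and 30.6 in P66, P67 and P74, 64.4, 128 and 98.9 in C79, C84 and C85, and 118, 32.8 and 72.4 in E75, E77 and E90. Of the 17 tested, 0 were called in P against H by limma, 8 rose in C against H and 9 in E against H. Over all tested genes 12.2%, 7.25% and 11.0% were called higher. In P against H 2 of the 17 had an unadjusted p under 0.05, beside 5924 of all 18119 tested genes. Foxc1, a transcription factor of the meninges, rose by 0.84 in C (adjusted p = 0.0167), and Col15a1 rose by 1.42 in E (adjusted p = 0.00366). Dcn was lowest in P in P74 and lowest in C in C79, the libraries with the lowest sums of their groups. C84, with the highest sum, had 12.8 FPKM of Dcn, and E77, whose sum was below those of all C libraries, had 37.1. Omd was highest in C84 and E75, the 2 libraries with the highest sums. Whether the members' RNA came from meningeal fibroblasts cannot be told from whole cord.

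Schwann cell and nerve root markers summed to 129, 63.9 and 46.9 FPKM in H1, H2 and H4, 170, 251 and 186 in P66, P67 and P74, 82.2, 101 and 197 in C79, C84 and C85, and 629, 394 and 903 in E75, E77 and E90. The marker Pmp2 was listed at 0 in all libraries but E90. Of the 11 tested, 4 rose in P against H, 1 in C against H and 10 in E against H. The shares of all tested genes called higher were 12.2%, 7.25% and 11.0%. In C against E 3 fell, Drp2 by 1.21, Dhh by 2.14 and Pmp22 by 1.91, beside 22 of all 18119 tested genes. In E against P 0 were called by limma. At an unadjusted p under 0.05 there were 9 in E against P, beside 889 of all 18119 tested genes. Dcn, Lum and Ogn were highest in the same 3 E libraries in which this list was highest. Mural markers summed to 57.2 to 82.3 FPKM in H, 67.3 to 109 in P, 97.3 to 131 in C and 91.5 to 110 in E. Bone, cartilage and tendon markers summed to 11.96 to 15.1 FPKM in H and 6.8 to 11.8 in the other libraries. Glial lists differed too, with 9 of 10 microglia markers and 7 of 10 astrocyte markers higher in P against H and 7 of 10 neuron markers lower. Of all 18119 tested genes, 12.2% were called higher and 591 genes lower in this comparison. The 10 oligodendrocyte markers also set E apart, with sums of 3306 to 4276 FPKM in E, below the 4456 to 6243 FPKM of the other 9 libraries.

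**Figure D5:**
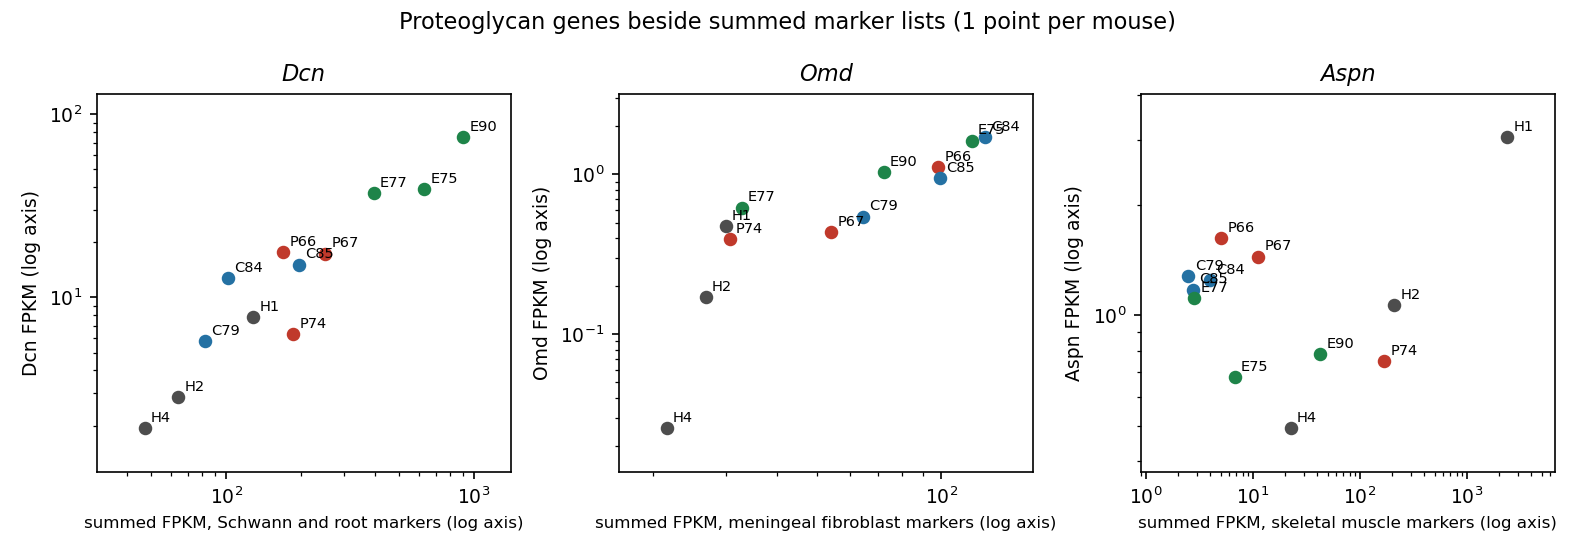
Level of a member against the summed FPKM of a marker list in each library (log axes), for Dcn with Schwann cell and root markers, Omd with meningeal fibroblast markers and Aspn with skeletal muscle markers. The 3 E libraries are at the upper right for Dcn, and H1 stands alone at the right for Aspn.

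Other genes of the family stood at low levels. Of 10 listed, 7 were tested, and 1 rose in P against H, 0 in C and 1 in E by limma. Over all tested genes 12.2%, 7.25% and 11.0% were called higher. At an unadjusted p under 0.05 there were 1 in P, 4 in C and 3 in E, beside 5924, 4675 and 5380 of all 18119 tested genes. In the ALS model against H 2 rose, beside 16.4% of all tested genes. These were Ecm2 by 0.59 (adjusted p = 0.0157) and Tsku by 0.40 (adjusted p = 0.0471). Ecm2, the neighbour of Aspn, had means of 2.0 FPKM in H, 3.71 in P, 3.52 in C and 3.48 in E, and rose by 0.61 in P (adjusted p = 0.0404). In C it differed by 0.59 (adjusted p = 0.0659) and in E by 0.58 (adjusted p = 0.0525). Tsku, which encodes tsukushi, rose by 0.53 in E (adjusted p = 0.0483). Optc, Chad, Chadl, Nyx and Podn did not pass in these comparisons. Kera, the neighbour of Lum, had 9 reads in all, every one in H1, and was not tested, nor were Epyc and Podnl1.

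Genes that act with these proteoglycans were counted from lists, beside 12.2% of all tested genes called higher in P, 7.25% in C and 11.0% in E. Of 13 receptors and signal carriers of soluble proteoglycans, 9 rose in P, 8 in C and 11 in E against H. Tlr2 rose by 2.11 in P, 1.72 in C and 1.65 in E, and Cd14, its coreceptor, by 1.96, 2.13 and 1.84. Of 18 genes of the TGF-beta axis, 7, 4 and 10 rose. The receptor genes Tgfbr1 and Tgfbr2 rose by 1.54 and 1.35 in P, 1.26 and 1.07 in C, and 1.16 and 1.44 in E. Of 17 partners in the collagen fibril, 4, 4 and 11 rose, among them Col12a1, a collagen of fibril surfaces, by 1.303, 1.12 and 1.26. The cross-linking enzyme Lox rose by 1.32 in P and 2.12 in E, and its difference in C was 0.89 (adjusted p = 0.121). Of 11 proteases tested, 5 rose and 1 fell in P, 3 rose and 1 fell in C, and 7 rose and 2 fell in E. Mmp12, a macrophage elastase, rose by 1.55, 1.55 and 1.56, and Mmp9 fell by 0.92 in P, 0.75 in C and 0.93 in E. Of 26 tested genes that build glycosaminoglycan chains, 5 rose and 1 fell in P, 4 rose in C and 6 in E. Dse, an epimerase that makes dermatan sulfate, rose by 0.52, 0.43 and 0.50. The medians of the list were 0.14 in P, 0.06 in C and 0.18 in E, near those of all tested genes at 0.07, 0.07 and 0.08. None of these 5 lists had a gene called by limma in C against P, E against P or C against E. At an unadjusted p under 0.05 the collagen fibril list had 0, 7 and 7 genes in these comparisons, the TGF-beta axis 2, 3 and 4, the receptors 0, 1 and 1, the proteases 0, 2 and 2, and chain synthesis 4, 0 and 4. Of all 18119 tested genes, 1802, 889 and 1991 were under this p.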

How the data were processed

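The authors deposited FPKM per gene for 12 libraries in 4 group tables, and the unit was read from the values, since no header names it. The submitters' processing notes name cutadapt, HISAT2, featureCounts and GRCm38, without versions or a strand setting. Per the labels' protocols, lumbar cord RNA was selected with oligo(dT) and the second strand was marked.

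FPKM times the exon length of GENCODE M21 gave whole reads for 95.2 to 95.7% of low values, within 0.02 of a read. Of 33906 identifiers, 33829 matched. Genes with reads equal to at least 10 in the median library in 3 libraries, and 15 in all, were tested (18119). limma 3.58.1 in R 4.3.3 was fitted to log2(FPKM + 1) with all 12 libraries, 1 mean per group, and trended, robust moderation. p-values were two-sided and adjusted by Benjamini-Hochberg over all tested genes, with a threshold of 0.05. The fit was run on simulated data for E against P only, with the same spread for every gene. It does not show how the fit performs for genes that vary more between mice.

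Alternatives were limma-voom on recovered reads, median-ratio scaling, a pseudocount of 0.1, no filter, an FPKM minimum of 0.1, only the 2 groups compared, moderation with no trend or robust step, and leaving out each mouse. Genes of the lists were named by lowest adjusted p, at most 3 of each list in a comparison. Some genes that the rules would name are not reported here. The members and lists were chosen with earlier results of these data known. The mice were separate animals, as far as the labels' mouse numbers show.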

Additional observations from a re-analysis of the deposited data

Results flagged for a closer look

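All 8 members were searched for C and E libraries on opposite sides of the mean of the PBS group, and only Ogn showed this. How many of all tested genes show it was not counted. For Ogn, the 3 C libraries and the 3 E libraries lay on opposite sides of that mean, and the mean level was 59.9 FPKM higher in E than in C. C84 and C85 stood at 18.6 and 19.9 FPKM and C79 at 9.14, below the P mean of 21.8 FPKM, and the E libraries stood at 56.6, 57.6 and 113 FPKM, above it. C84 and C85 lay within the span of the P libraries, 17.4 to 25.6 FPKM. C against P in limma gave -0.49 (adjusted p = 0.794) for Ogn and did not pass. The test of the difference itself, C against E in limma, gave -2.18 (adjusted p = 0.159) and did not pass. The sum of Schwann cell and nerve root markers, 82.2 to 197 FPKM in C and 394 to 903 FPKM in E, moved with it, and its part was not tested.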

How the results depend on the processing

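Fmod and Prelp were called against H in P, C and E under every alternative run, and Ogn in P and E. Without the filter, calls over all genes fell to 1444 in P against H (2807 as reported), 736 in C against H (1505), 1469 in E against H (2392), 2468 in the ALS model against H (3734) and 4 in C against E (31), and were 5 in C against P (1) and 3 in E against P (0). With only the 2 groups fitted they were 1471 in P against H and 4 in C against E. C against E gave 14 with an FPKM filter and 17 with a pseudocount of 0.1. C against P gave 4 with the FPKM filter, 2 with median-ratio scaling, and 0 with limma-voom or the pseudocount, and E against P gave 2 with the FPKM filter. Members called were 2 in C against H without the filter and 6 in P against H with the pseudocount. Prelp in H was 6.54 FPKM under median-ratio scaling, which also moved the share of calls that were higher from 78.9 to 53.4% in P against H, 87.2 to 67.5% in C, 83.7 to 58.9% in E and 79.6 to 53.5% in the ALS model. The scaling factors were 0.928 to 0.970 in H and 1.01 to 1.05 in the other libraries. Scaling thus lowered differences from H, by a median of 0.09 in P against H. Why the factors differed was not tested.

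Leaving out 1 mouse gave 933 (without P66) to 3535 (without P74) genes in P against H, 567 (without H2) to 1915 in C against H, 1159 (without E90) to 2230 in E against H, 1555 (without H2) to 4302 in the ALS model against H, 0 to 56 in C against E, 0 to 2 in C against P and 0 to 2 in E against P. Members called ran from 3 to 6 in P against H, 2 to 4 in C against H and 4 to 7 in the ALS model against H.

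Directions turned only for members without a call. Aspn became 0.038 in C against H and 0.018 in P against H with the pseudocount. In C against P it became 0.034 with limma-voom, 0.0030 with median-ratio scaling and 0.020 with the pseudocount. Leaving out 1 mouse, Aspn ran from -0.37 to 0.35 in P against H, -0.38 to 0.35 in C against H, -0.65 to 0.075 in E against H, -0.47 to 0.26 in the ALS model against H and -0.18 to 0.11 in C against P. In C against P the ranges were -0.071 to 0.43 for Bgn, -0.69 to 0.13 for Dcn, -0.23 to 0.83 for Fmod, -0.78 to 0.25 for Lum and -0.077 to 0.36 for Prelp. In E against P they were -1.03 to 0.033 for Fmod and -0.31 to 0.13 for Prelp, and in C against E -0.40 to 0.090 for Bgn and -0.24 to 0.16 for Omd.

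No paired analysis was possible because the groups share no mouse numbers. Omd had the fewest reads of the members, 1 to 71 per library, and 3 mice per group limit every comparison.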
